A study of Mus musculus with 13 samples.

Results

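The C1q interstitial macrophages of the lung were 608 cells of the 20856 lung barcodes that had at most 10% of their unique molecular identifiers (UMIs) on mitochondrial genes, and of 37344 barcodes in all 7 libraries of the single-cell matrix. They made up 2.92% of the lung barcodes (exact 95% binomial interval 2.69 to 3.15%). A cell was a member when it came from library 1, 2, 3 or 7, carried at least 10 UMIs over C1qa, C1qb and C1qc, fewer than 5 over a set of 3 genes that holds Mmp12 and Gpnmb, and fewer than 5 over Fabp1, Ear1, Krt79, Marco, Plet1 and Car4. The members were thus chosen by measured UMIs of these 12 genes, and the levels of these genes in them are a description that supports nothing.

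The study compared protease-dissociated whole lungs of wild-type C57BL/6 mice under 4 conditions, with cells of 1 mouse loaded for each: Control, Asthma (ovalbumin), PPE-emphysema (porcine pancreatic elastase, which breaks down elastic fibres) and PPE-recovery. Lungs were taken on day 31 in the asthma model (2 ovalbumin sensitisations, 3 challenges) and in the recovery model (elastase given once, on day 7), and in the emphysema and control mice 3 days after the end of a weekly course of 4 doses into the trachea. Another 9 samples of the series were not analysed here. The barcodes carry a library number only, so that no library could be given a condition, values are shown per library, and the treatments cannot be compared; libraries 4, 5 and 6, rich in hemoglobin transcripts, were outside the rule.

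C1q is the recognition molecule of the classical complement pathway, built from A, B and C chains, and tissue macrophages are its main source in the body. Interstitial macrophages lie within the lung wall, around vessels, nerves and airways, whereas alveolar macrophages float in the air spaces and clear surfactant. In the mouse lung, interstitial macrophages are commonly divided into cells with high Lyve1, a hyaluronan receptor, and low MHC class II, found beside blood vessels, and cells with high MHC class II and low Lyve1.

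The genes for the 3 chains lie side by side on the minus strand of chromosome 4 in the GRCm38 assembly, with C1qb at chr4:136880129-136886187, C1qc at chr4:136889804-136893065 and C1qa at chr4:136895917-136898803. Ccl8 (chr11:82115185-82116799) and Ccl12 (chr11:82101845-82103400) are neighbours on the plus strand of chromosome 11, beside Ccl2 (chr11:82035571-82037453) and Ccl7 (chr11:82045712-82047525). Since these genes are the markers that define the cells, the 250 bases upstream of their starts are shown from RefSeq (GRCm38.p6), 5′ to 3′ on the strand of each gene, with matches in capitals to GAGGAA (or TTCCTC on the other strand), the core letters of sites of PU.1, the macrophage lineage factor, and to TGCTGA (or TCAGCA), the core letters of sites of the MAF family.

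C1qb (chr4:136886201-136886450, minus strand): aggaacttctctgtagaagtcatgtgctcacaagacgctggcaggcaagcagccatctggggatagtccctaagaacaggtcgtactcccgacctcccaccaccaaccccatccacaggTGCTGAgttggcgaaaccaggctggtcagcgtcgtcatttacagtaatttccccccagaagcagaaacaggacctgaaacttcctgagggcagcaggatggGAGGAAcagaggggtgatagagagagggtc

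C1qc (chr4:136892915-136893164, minus strand): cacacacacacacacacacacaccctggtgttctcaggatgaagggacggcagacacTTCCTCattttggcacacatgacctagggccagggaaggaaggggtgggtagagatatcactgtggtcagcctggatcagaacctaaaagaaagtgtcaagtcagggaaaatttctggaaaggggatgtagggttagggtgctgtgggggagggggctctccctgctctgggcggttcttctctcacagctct

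Ccl8 (chr11:82114935-82115184, plus strand): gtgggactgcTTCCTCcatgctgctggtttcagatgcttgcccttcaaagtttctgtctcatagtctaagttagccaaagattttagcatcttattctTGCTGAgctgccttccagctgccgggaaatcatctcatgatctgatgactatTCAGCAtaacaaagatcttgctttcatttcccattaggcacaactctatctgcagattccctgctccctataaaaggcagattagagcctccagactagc

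Ccl12 (chr11:82101595-82101844, plus strand): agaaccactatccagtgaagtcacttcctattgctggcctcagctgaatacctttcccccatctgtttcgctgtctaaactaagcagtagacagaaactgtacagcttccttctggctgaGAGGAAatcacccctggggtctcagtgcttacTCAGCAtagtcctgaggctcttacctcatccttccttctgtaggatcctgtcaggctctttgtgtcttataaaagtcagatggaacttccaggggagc

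The C1qc window follows the RefSeq start, which lies inside the span given above, so that much of this window is within that span. The PU.1 letters began 30 bases before the C1qb start and 193 before that of C1qc, and at 240 and 130 bases for Ccl8 and Ccl12. The MAF letters stood at 131 bases for C1qb, at 152 and 100 for Ccl8 and at 98 for Ccl12, while the C1qc window held none. The 2 RefSeq starts of Ms4a7 had neither motif in this window. Of 32851 promoters in the table, 23.3% held the PU.1 letters and 16.1% the MAF letters, so that a match in any 1 window is common, and it is given as a description.

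The number of C1q macrophages per library was 202, 248, 98 and 60 in libraries 1, 2, 3 and 7, the order used for all sets of 4 values here. These were 4.21%, 3.25%, 1.91% and 1.82% of the lung barcodes of each library. Under this rule libraries 3 and 7 thus held smaller shares than libraries 1 and 2. With 1 mouse behind each condition such a difference has no replicate check. Depth was alike across libraries, with medians of 11443.5, 9313.5, 9271 and 9565.5 UMIs per cell, a range from 501 to 77208 and 6539002 UMIs in all members. Scrublet, a doublet caller, marked 21 members (3.45%), of which 16 were in library 2; they were kept. Barcodes were shared between libraries by 306 of 37344 in the matrix and 6 of the 608 members.

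The limit on the set with Mmp12 and Gpnmb, genes of lipid-laden and matrix-degrading macrophages, took the most cells. At least 10 C1q UMIs were found in 1206 cells, of which 574 had 5 or more UMIs of those genes and 66 had 5 or more of the alveolar genes, with 42 cells past both limits. By library, 376 of 580, 74 of 337, 28 of 132 and 96 of 157 cells had 5 or more UMIs of those genes. The shares of members by library therefore depend on this limit. Just inside it, the 52 cells with 3 to 4 such UMIs held 2733.0 CPM (UMIs of a gene per 1000000 UMIs) of Ccl8 and 655.2 CPM of Ms4a7, and just outside it the 41 cells with 5 to 6 held 251.5 CPM and 627.7 CPM. Members carried 10 to 579 C1q UMIs with a median of 124, and 69 had fewer than 20. The 34 cells with 10 to 12 C1q UMIs were shallow (median 1922.5 UMIs) and held 74.9 CPM of Ms4a7, against 35.65 CPM in the 28 cells just below the limit, with 7 to 9.

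The macrophage label held for the genes that the rule did not use. F4/80 (Adgre1), the surface antigen used to define mouse macrophages, was at 445.1, 577.1, 469.9 and 512.8 CPM. Csf1r, the receptor that keeps macrophages alive, was at 690.6, 929.7, 913.3 and 871.5 CPM. Both were measured in every library within a narrow range, beside Lyz2 (lysozyme) at 12765.3 CPM and Spi1, which encodes PU.1, at 368.6 CPM over all members. Levels are shares of 3′ UMIs and were not scaled by length, so ratios between populations are compared gene by gene and no order is read between genes. Near-identical or neighbouring family members, such as Ccl2, Ccl7, Ccl8 and Ccl12, Rnase2a and the Ear genes, the Cd209 genes and the MHC genes, are uncertain where reads could fall on either copy.

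To set these cells in context, 2 other myeloid populations were taken from the same libraries by marker UMIs, 1560 alveolar macrophages and 949 classical monocytes. A gene was called higher or lower when its CPM, with 5 CPM added, differed at least 2-fold in the same direction in every library; it had to reach 50 CPM in either population. Against alveolar macrophages 277 of 3751 genes tested (7.38%) were higher in C1q macrophages and 258 (6.88%) lower. Against monocytes 201 of 3456 (5.82%) were higher and 161 (4.66%) lower. No test was run, since the libraries could not be tied to the samples of the study, and these counts rest on the same direction in each library. The median log2 ratio of all genes tested was -0.22 and -0.12 in these comparisons, which is the baseline for the list medians below.

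**Figure D1:**
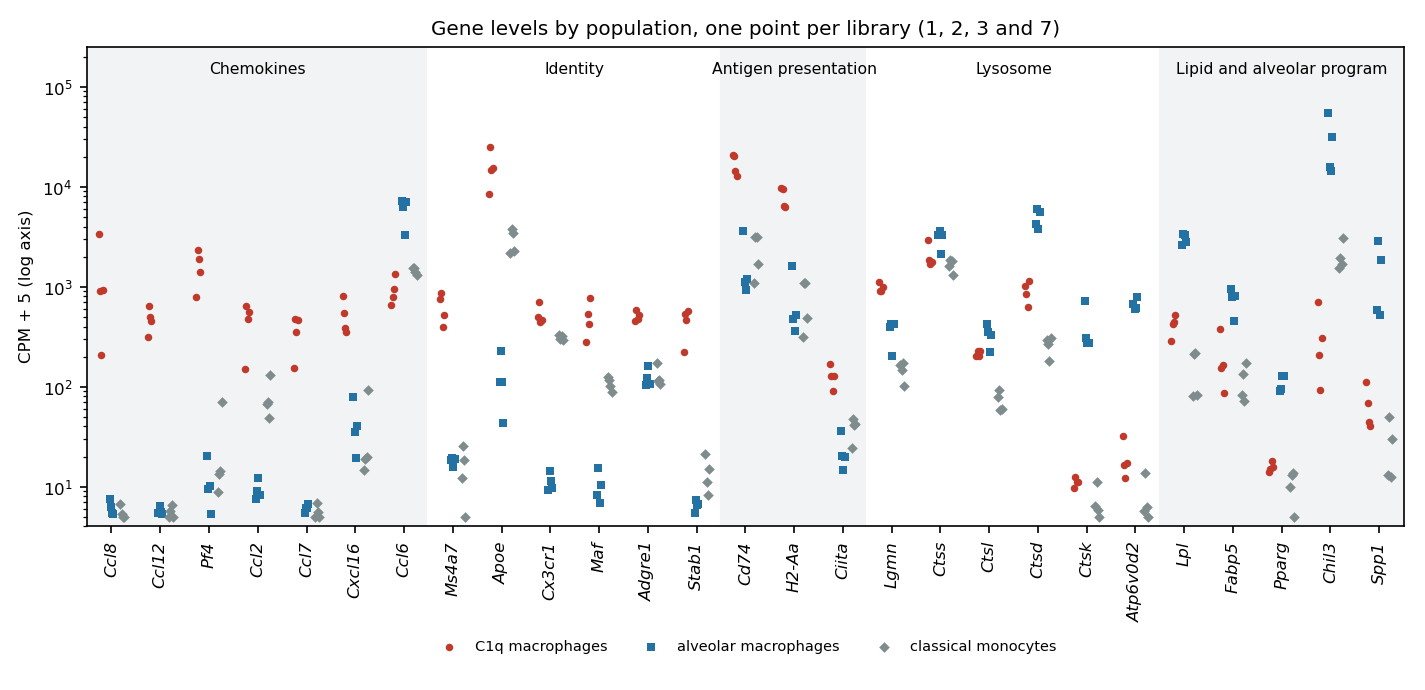
Level of selected genes (CPM plus 5, log axis) in C1q macrophages, alveolar macrophages and classical monocytes, 1 point per library. The 4 points of Ccl12 in C1q macrophages lie between 307.6 and 642.5 CPM, above every point of the other populations, while Ctsk lies between 4.713 and 7.403 CPM, below all alveolar macrophage points.

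The interstitial markers separated these cells from both populations. Of 11 listed markers tested, 10 were higher than in alveolar macrophages (Cd63, a tetraspanin of lysosomes, was not) and 11 were higher than in monocytes, against backgrounds of 7.38% and 5.82%. The median log2 ratios of the list were 5.08 and 4.92. Ms4a7, Ccl8 and Ccl12 gave the cells their working name, so that their excess describes that choice.

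Ms4a7 (chr19:11321039-11336146, minus strand), a membrane protein of the MS4A family found in macrophages, was at 749.3, 851.4, 394.6 and 518.9 CPM in C1q macrophages. Alveolar macrophages held 13.36, 14.28, 10.58 and 14 CPM. Monocytes held 7.286, 20.79, 13.5 and 0 CPM. The 4 libraries did not overlap with those of either population, and library 3 was the lowest of the C1q macrophages.

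Ccl8, a chemokine that attracts monocytes and T cells, was the most uneven marker, at 3329.4, 891.1, 200.3 and 918.8 CPM. Its lowest library still stood above every library of the alveolar macrophages (2.505, 1.212, 0.4317 and 0.2979 CPM), with log2 ratios of 8.80, 7.17, 5.24 and 7.45. Its UMIs were concentrated, as the 5 highest cells held 33.28%, 47.79%, 69.04% and 65.78% of its UMIs in the 4 libraries. Ccl12, a ligand of CCR2, was more even at 307.6, 642.5, 496.3 and 444.2 CPM, and was at or below 1.5 CPM in every library of both other populations. Pf4, the platelet factor chemokine that macrophages also make, was at 788.8, 2300.8, 1871.3 and 1398.1 CPM, lowest in library 1.

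Pooled over libraries, the log2 ratio to alveolar macrophages was 8.14 for Ccl8, 7.29 for Pf4, 6.40 for Ccl12 and 5.35 for Ms4a7. Stab1, a scavenger receptor, was at 219.4, 529.9, 458.7 and 569.3 CPM, and C3ar1, the receptor for the complement fragment C3a, at 257.5, 335.1, 381.4 and 315.9 CPM. Both were among the 10 genes whose smallest ratio to alveolar macrophages over the 4 libraries was largest, with Fcrls, an Fc receptor-like gene, the chemokine Ccl7 and Apoe, the apolipoprotein that carries cholesterol out of macrophages. Apoe was at 8533.2, 24699.1, 14783.1 and 15330.3 CPM, against 106.1, 221.2, 105.3 and 38.72 CPM in alveolar macrophages.

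Of 12 core macrophage genes tested, 8 were higher than in alveolar macrophages (among them Adgre1, Fcgr1, Maf, Cd14, Lgmn, Apoe and Cx3cr1) and 1, the apoptotic cell receptor Mertk, was lower. Mertk was at 54.84, 72.86, 58.99 and 77.84 CPM, against 152.8, 202.5, 229.7 and 225.8 CPM in alveolar macrophages, but between 2.1 and 4.97 CPM in monocytes. Compared with monocytes, 5 core genes were higher (Adgre1, Mertk, Maf, Lgmn and Apoe) and none lower. Cx3cr1, the fractalkine receptor, stood at 493.1, 699, 438.3 and 459.4 CPM, with log2 ratios of 5.57 to alveolar macrophages and 0.84 to monocytes. It thus parted C1q from alveolar macrophages, but did not reach 2-fold over monocytes in every library.

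Of 29 transcription factors tested, 10 were higher and 4 lower than in alveolar macrophages. Maf, a factor of resident macrophages, was at 276.8, 528, 419 and 769.3 CPM against 3.341, 10.51, 1.835 and 5.362 CPM in alveolar macrophages. It was also higher than in monocytes, with log2 ratios of 1.16, 2.18, 2.07 and 3.11. The 4 lower factors were Pparg, the lipid-sensing factor of alveolar macrophages, Bhlhe41, Tfec and Runx1. Of the 10 higher factors, Egr1, Atf3, Fos, Jun and Junb belong to the immediate early genes that cell dissociation raises, and 11 of 13 genes on a list of those were higher than in alveolar macrophages (median log2 ratio 2.04). The dissociation list held 6836.2, 10894.2, 13054.2 and 13243.8 CPM in C1q macrophages, lowest in library 1; its part in the other results was not tested. Against monocytes 1 of its genes, Egr1, was higher.

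**Figure D2:**
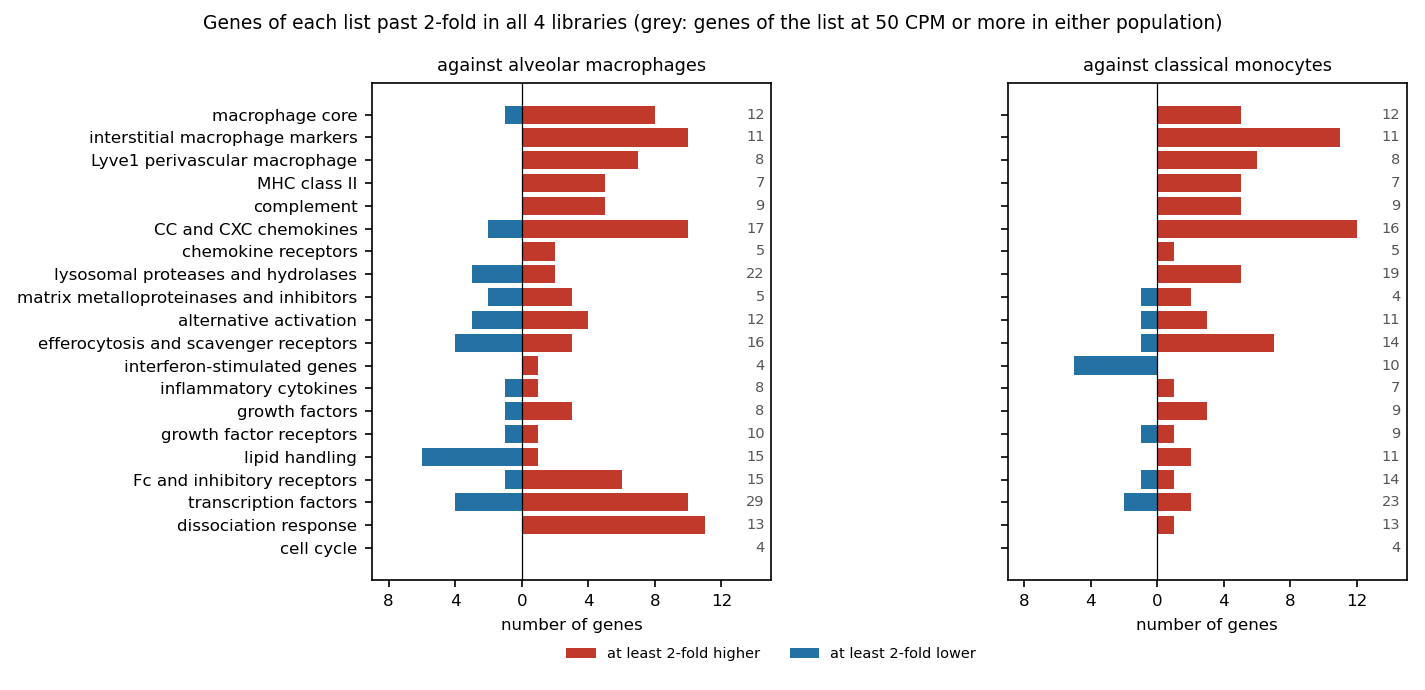
Number of genes of each list at least 2-fold higher (red) or lower (blue) in C1q macrophages in all 4 lung libraries, in 2 panels for the comparison with alveolar macrophages and classical monocytes. Grey numbers give the genes of the list at 50 CPM or more in either population, and the interstitial markers show 10 of 11 and 11 of 11 higher.

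Antigen presentation genes were high in all libraries. H2-Aa (chr17:34282744-34287823), an MHC class II alpha chain, was at 9783.9, 9526.2, 6435.6 and 6331.1 CPM. In alveolar macrophages it was at 1612.6, 474.6, 359.3 and 518.3 CPM, and in monocytes at 310.5, 1076.3, 1087.3 and 479.4 CPM. No library of C1q macrophages overlapped with these, and the pooled log2 ratios were 3.98 to alveolar macrophages and 3.42 to monocytes. Cd74, the invariant chain that guides class II molecules through the cell, was at 20870.2, 20454.0, 14502.4 and 12952.3 CPM. Of 7 class II genes tested, 5 were higher in each comparison (H2-Aa, H2-Ab1, H2-Eb1, Cd74 and Ciita, the master regulator of the class II genes), whereas H2-DMa and H2-DMb1, which load peptide, were not. The list as a whole stood at a log2 ratio of 3.77 to alveolar macrophages and 3.16 to monocytes. Single libraries ranged from 2.53 to 4.07 and from 2.40 to 4.42, so that the size but not the direction varied.

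Among complement genes other than C1q, 5 of 9 tested were higher than in alveolar macrophages and none lower. Among them were C3ar1, Itgam (an integrin chain of the complement receptor CR3), the alternative pathway stabiliser Cfp and the classical pathway component C4b. Cfp was at 263.9, 427, 376.3 and 430.4 CPM. The receptor C5ar1, at 152.5, 304.3, 337.6 and 264.1 CPM, was higher than in monocytes. C3, the central component, was at 357.7, 152, 145.4 and 212.2 CPM and was not called against either population. Itgax, an integrin of alveolar macrophages and dendritic cells, was at 301.2, 56.11, 67.12 and 100.7 CPM, higher than in monocytes in every library but not called against alveolar macrophages (449.7, 407, 376.5 and 357.8 CPM).

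Most chemokine genes were higher in these cells. Of 17 tested against alveolar macrophages, 10 were higher (Ccl2, Ccl3, Ccl4, Ccl7, Ccl8, Ccl12, Ccl24, Cxcl13, Cxcl16 and Pf4) and 2 lower (Ccl6 and Ccl17). Cxcl13 rested on few cells, as the 5 highest held 84.38%, 60.21%, 90.13% and 100% of its UMIs. In library 7 a single cell held all of them. Ccl2, the main ligand of CCR2 on monocytes, was at 144, 638.6, 472.9 and 555.6 CPM against at most 7.34 CPM in any library of alveolar macrophages. Ccl7, another CCR2 ligand, was at 150.4, 468, 346.8 and 460.9 CPM. Both were lowest in library 1, the library with the highest Ccl8. Cxcl16, a membrane-bound chemokine for CXCR6 on T cells, went the other way, at 799.5, 537.7, 378.3 and 351.1 CPM. Against monocytes 12 of 16 chemokines were higher and none lower. The median gene was higher in each comparison (log2 ratios of 3.69 and 3.07), and the summed level of the list was 0.55 and 1.72, with library 1 at -0.08 against alveolar macrophages. Ccl6, a CC chemokine of myeloid cells, was at 654.7, 780.4, 946.8 and 1321.8 CPM against 7240.2, 6265.1, 3316.7 and 7100.2 CPM in alveolar macrophages.

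The chemokine receptors differed by comparison. Ccr2 was at 824.7, 404.1, 494.3 and 525.1 CPM in C1q macrophages and at 951, 1159.9, 928.3 and 1323.9 CPM in monocytes, and was higher than in alveolar macrophages. Ccr3, the eotaxin receptor of eosinophils, was at 0.4284, 0, 1.017 and 0 CPM.

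Lysosomal genes as a group did not stand apart from alveolar macrophages. Of 22 tested, 2 were higher, among them Lgmn, the asparagine endopeptidase, and 3 lower (Ctsd, Ctsk and Atp6v0d2), with a median log2 ratio of -0.01. Ctsl (chr13:64359337-64370890), the cysteine protease cathepsin L, was at 196.7, 221.3, 199.3 and 222.8 CPM. Alveolar macrophages held 418.4, 346.5, 215.1 and 324.7 CPM and monocytes 73.21, 87.54, 53.39 and 54.64 CPM. In C1q macrophages Ctsl was therefore called higher than in monocytes (pooled log2 ratio 1.52), and against alveolar macrophages it was not called, with log2 ratios of -1.07, -0.64, -0.11 and -0.53.

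Ctsk, a collagen-degrading cathepsin, was almost without UMIs, at 4.713, 7.403, 6.102 and 6.105 CPM against 721.6, 303.8, 266.9 and 269 CPM in alveolar macrophages. Atp6v0d2, a proton pump subunit, was at 26.99, 11.3, 7.119 and 12.21 CPM against 666.4, 588.1, 611.9 and 776 CPM. Ctss, the cathepsin that trims the invariant chain, was at 2961.0, 1839.1, 1686.2 and 1762.9 CPM. Lysosomal genes therefore parted by member, with Ctsk, Ctsd (an aspartyl protease) and Atp6v0d2 lower than in alveolar macrophages and Ctsl, Ctsd, Lgmn and Atp6v0a1 (another proton pump subunit) higher than in monocytes. Dnase2a, the lysosomal nuclease, at 94.69, 85.72, 82.38 and 106.8 CPM, was called in neither comparison.

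Lipid genes other than Apoe were mostly lower than in alveolar macrophages or not called. Of 15 tested, 6 were lower (Abcg1, Lpl, Plin2, Fabp4, Fabp5 and Pparg) and 1, Apoe, higher, with a median log2 ratio of -1.24. Lpl, lipoprotein lipase, was at 280.6, 420.4, 435.3 and 517.4 CPM against 2590.6, 3360.9, 3286.7 and 2829.2 CPM. Pparg was at 8.997, 10.13, 13.22 and 10.68 CPM against 85.6, 90.4, 123.2 and 122.1 CPM. The sum of the list pointed the opposite way, at 1.25, because Apoe alone makes up most of its UMIs in C1q macrophages. Against monocytes Apoe and the cholesterol exporter Abca1 were higher and none of 11 lower.

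Chil3, a chitinase-like protein abundant in alveolar macrophages, led the lower genes in the comparison with alveolar macrophages, at 702.6, 204.2, 87.46 and 299.2 CPM against 54972.2, 15583.0, 14524.7 and 31473.4 CPM. Other genes among the 10 lower by most in every library were Ly75 (an endocytic receptor), Cidec (a lipid droplet protein), Mgll (a monoglyceride lipase), Slc7a2 (an arginine transporter), Fpr1 (a formyl peptide receptor), Kcnn3 (a potassium channel) and Wfdc21. Against monocytes the lower genes included Plac8, at 324.3, 87.28, 420 and 221.3 CPM against 4362.3, 4100.0, 4212.7 and 3109.7 CPM, Mmp8 (a collagenase), Gsr (glutathione reductase) and Msrb1.

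Genes of alternative activation were divided. Of 12 tested against alveolar macrophages, 4 were higher (Retnla, Mgl2, Clec10a and Ccl24) and 3 lower (Chil3, Ear2 and Tgm2), with a median log2 ratio of 0.20. The sum of the list pointed the other way, at -1.97, with -2.85, -1.98, -1.52 and -2.32 by library. Against monocytes 3 of 11 were higher (Mrc1, Mgl2 and Ccl24) and 1, Chil3, lower. Retnla (chr16:48842551-48844461), a secreted protein that IL-4 and IL-13 raise, was at 5213.7, 2267.7, 4391.4 and 4282.8 CPM against 671, 11.18, 3.562 and 5.958 CPM in alveolar macrophages. In monocytes it was at 17.69, 5.836, 192 and 6472.8 CPM, which overlapped. The 5 highest cells held 39.4%, 91.7%, 83.19% and 89.34% of its UMIs, so that it was concentrated in few cells in libraries 2, 3 and 7. The C-type lectins Mgl2 (628.5, 766.4, 514.6 and 505.2 CPM) and Mrc1, the mannose receptor (492.3, 907.1, 768.9 and 970.7 CPM), were more even. Mrc1 was above monocytes by log2 ratios of 4.62 to 6.61 but overlapped with alveolar macrophages (806.3, 967.7, 916.5 and 1090.5 CPM).

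Receptors and bridging molecules for apoptotic cells parted in the same way. Against alveolar macrophages 3 of 16 were higher (Gas6, the ligand that bridges dying cells to Mertk and Axl, Stab1 and the hemoglobin scavenger Cd163) and 4 lower (Mertk, Pros1, Cd300lf and Clec4n). Against monocytes 7 of 14 were higher and 1 lower (Scarb1, a lipoprotein receptor), and Axl was at 365.5, 224.4, 210.5 and 212.2 CPM. Dab2, an endocytic adaptor, was at 376.2, 768.4, 667.2 and 592.2 CPM against at most 5.106 CPM in any monocyte library.

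Of 8 growth factor genes tested against alveolar macrophages, 3 were higher (Igf1, Pdgfa and Pdgfb) and 1, Spp1 (osteopontin), was lower. The summed list was at a log2 ratio of -0.44, with -0.11, -1.25, -0.02 and -0.38 by library and 0.04 without library 2. Igf1 was at 514.6, 282.9, 206.5 and 293.1 CPM, and Pdgfb at 115.7, 108.7, 107.8 and 100.7 CPM against 5.505 to 11.62 CPM in alveolar macrophages. Spp1 was at 105.4, 63.51, 39.66 and 35.11 CPM against 577.9, 2878.3, 513.1 and 1851.3 CPM. Among 5 matrix protease genes, Mmp9 (gelatinase B), Mmp14 (a membrane collagenase) and the inhibitor Timp2 were higher and Mmp8 and Mmp19 lower. Timp2 was at 479.4, 520.2, 526.8 and 512.8 CPM, the most even of these genes, against 154.1, 138.5, 84.95 and 149.8 CPM, while Mmp9 ran from 5.57 CPM in library 1 to 129.7 CPM in library 7.

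Interferon-stimulated genes were low relative to monocytes, with 5 of 10 tested lower (Irf7, Oasl2, Ifi204, Ifi27l2a and Zbp1) and none higher, and a median log2 ratio of -1.79. Irf7, the factor that amplifies type I interferon, was at 35.56, 26.88, 38.65 and 16.79 CPM against 147.1, 284.5, 278.3 and 178.8 CPM. Relative to alveolar macrophages 1 of 4 tested was higher (Ifi27l2a) and 0 lower. The summed list stood above that of alveolar macrophages, at log2 ratios of 0.84, 1.79, 2.39 and 1.37 by library. Of 8 cytokine genes tested against alveolar macrophages, 1 was higher, Ptgs2 (the inducible cyclooxygenase), and 1 lower, Il18. For so few genes this is near the shares of all genes tested, 7.38% higher and 6.88% lower. Il1b was at 660.7, 810.4, 554.3 and 451.8 CPM. Il10 was uneven, at 16.28, 68.58, 2.034 and 129.7 CPM. Of 15 Fc receptor and related immune receptor genes, 6 were higher and 1 lower than in alveolar macrophages, led by Ms4a7 and Fcgr1, the high-affinity IgG receptor (87.83, 141, 137.3 and 123.6 CPM). Fcer1g, the signalling chain of Fc receptors, was at 1977.7, 2175.0, 1909.9 and 1634.7 CPM. Of growth factor receptor genes, 1 of 10 was higher (Il10rb) and 1 lower (Csf2rb, a chain of the GM-CSF receptor). This is near the 7.38% and 6.88% of all genes tested, so these receptors did not stand apart as a group. None of the 4 cell cycle genes tested was called in the comparison with alveolar macrophages.

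Eosinophil genes were near or at 0 in these cells. Epx, Prg2 and Prg3, which encode eosinophil granule proteins, had no UMI in the 608 cells, and Il5ra, the interleukin-5 receptor, was at 0, 0.3896, 0 and 0 CPM. The whole eosinophil list of 6 genes summed to 1.285, 0.7793, 1.017 and 0 CPM, and no cell had 3 or more of its UMIs. Rnase2a, which encodes an eosinophil-associated ribonuclease that macrophages also make, was at 355.2, 10.13, 3.051 and 73.26 CPM, highest in library 1. Ms4a2 and Cpa3 of mast cells, and Elane of neutrophil precursors, had no UMI.

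Markers of other cells were present too, at levels that differed widely between libraries. The 5 classical monocyte markers summed to 1195.3, 536.9, 1089.2 and 857.8 CPM, and 258 members (42.4%) had 3 or more of their UMIs. Over all members Ccr2 made up 579.9 of their 887.1 CPM. Alveolar macrophage markers summed to 1071.1, 288.7, 245.1 and 439.6 CPM, with 222 cells at 3 or more UMIs. Chil3 was 374.1 of the 576.5 CPM of this list over all members. B cell markers reached 407.4 CPM, of which Ighm, the IgM heavy chain, was 331.5 CPM. Airway epithelial markers stood at 975.1, 538.9, 690.5 and 32599.0 CPM, almost all Scgb1a1, the club cell secretory protein. Alveolar type 2 markers were at 35.56, 3544.9, 96.61 and 3003.8 CPM, and surfactant protein C (Sftpc) was 1276.5 of their 1719.5 CPM over all members. In library 7, the highest cell for each gene held 99.66% of the Scgb1a1 and 98.5% of the Sftpc UMIs, and in library 1 a single cell held 83.56% of Scgb1a1. In libraries 2 and 3 Scgb1a1 was spread over nearly all members instead, with a UMI in 97.18% and 95.92% of them and 1.28% and 4.65% of its UMIs in the highest cell. With the 81 cells left out that had 10 or more UMIs of such markers, an alternative chosen after seeing the data, Ms4a7 was at 767.8, 946.5, 453.7 and 700.7 CPM, H2-Aa at 10221.1, 10517.9, 7876.7 and 8142.0 CPM and Ccl8 at 3596.7, 1037.6, 138 and 996.2 CPM. Retnla was then at 5255.6, 2676.9, 1589.3 and 2493.9 CPM and Lyve1 at 13.7, 104.5, 83.36 and 89.55 CPM. Lyve1 was thus lower than over all members in every library, and Retnla in libraries 3 and 7.

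To compare cells at 1 depth, each was thinned to 3000 UMIs, which left out 56 shallower members and kept 552. B cells, which should lack these genes, served as background, with 1266 cells kept and 222 left out (median depths before thinning 9875.5 and 4344.5 UMIs). Ms4a7 was seen in 68.3% of C1q macrophages (exact 95% interval 64.2 to 72.2%) and in 0.632% of B cells. Ccl8 was seen in 27.7% (24.0 to 31.7%) and Ccl12 in 32.6% (28.7 to 36.7%), against 0.395% and 0% of B cells. Intervals cover counting error only.

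Cx3cr1 was seen in 65.2% of cells, Adgre1 in 69.9%, Pf4 in 67.9% and Mrc1 in 67.8%. Ctsl was seen in 40.4% (36.3 to 44.6%), at 40%, 42.42%, 36.47% and 39.22% by library, against 6.40% of B cells; without thinning the shares were 71.1% and 11.2%. Ctsk was seen in 1.63% of C1q macrophages and 1.58% of B cells, a share near the background. H2-Aa was seen in 92.4% and in 95.7% of B cells, which are themselves antigen-presenting cells. Ccr3 was seen in 0 of 552 cells, which allows up to 0.666% of cells with a UMI at this depth, and in 0.329% of members without thinning. Scgb1a1 was in 60.5% of members and 67.7% of B cells, that is no more often than in the background cells.

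**Figure D3:**
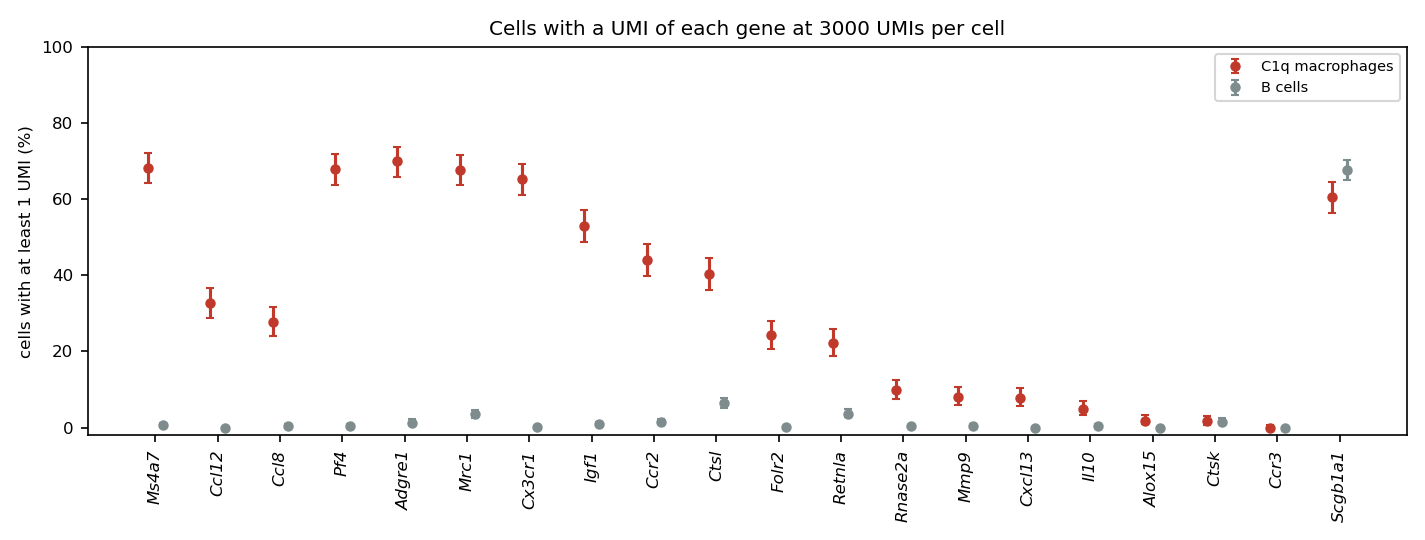
Share of cells (percent) with at least 1 UMI of 20 genes after thinning to 3000 UMIs per cell, in 552 C1q macrophages and 1266 B cells, with exact 95% binomial intervals. Ms4a7 reaches 68.3% in C1q macrophages and 0.632% in B cells, whereas Scgb1a1 is more frequent in B cells (67.7%) than in C1q macrophages (60.5%).

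The C1q macrophages differed among libraries in part of their genes. Of 1418 genes at 100 CPM or more, 187 (13.2%) differed at least 2-fold between the highest and the lowest library, and the median ratio was 1.44. The 10 widest were Sftpc, Sftpb, Sftpa1, Scgb1a1 and Cxcl15, which are epithelial, S100a8 and S100a9 of neutrophils, Lyz1, Rnase2a and Scd1. This count used all members, including the 81 cells that carried markers of other types, and was not repeated without them. Without those cells S100a8 was at 3.308, 13.45, 10.93 and 6.716 CPM and Cxcl15 at 4.725, 9.832, 6.833 and 2.239 CPM. Lyz1 still ranged widely, at 14.18, 206, 196.8 and 895.5 CPM. The C1q chains, on which the cells were selected, are given as a description: C1qa was at 4858.5, 5756.1, 4514.5 and 4125.6 CPM, C1qb at 3919.8, 5120.6, 4171.7 and 3281.6 CPM and C1qc at 2668.8, 3433.9, 2836.4 and 2620.7 CPM.

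Library 1 stood apart in several lists. Its Lyve1 list was at 557.4 CPM against 1751.8, 2574.0 and 3048.0 CPM in libraries 2, 3 and 7. Of the value in library 7, 1118.8 CPM were Cbr2, which was at 228.3 CPM there without the cells that carried markers of other types. In library 3, Fcna of this list was at 252.2 CPM over all members and at 56.03 CPM without those cells, and Lyve1 at 180 and 83.36 CPM. Lyve1 itself was at 23.14, 123.1, 180 and 228.9 CPM, and Folr2, a folate receptor of the same cells, at 102, 264.6, 452.6 and 178.6 CPM. Its MHC class II list, at 48710.2 CPM, was close to that of library 2 at 48933.7 CPM, and libraries 3 and 7 were lower at 33101.3 and 31086.4 CPM. Itgax, Ccl8, Rnase2a and Chil3 were highest in library 1, and Ccl2, Ccl7, Pf4, Stab1, Maf and Apoe lowest there. Alternative activation genes summed to 8274.9, 4787.9, 6483.4 and 6949.3 CPM. Library and condition cannot be told apart here.

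**Figure D4:**
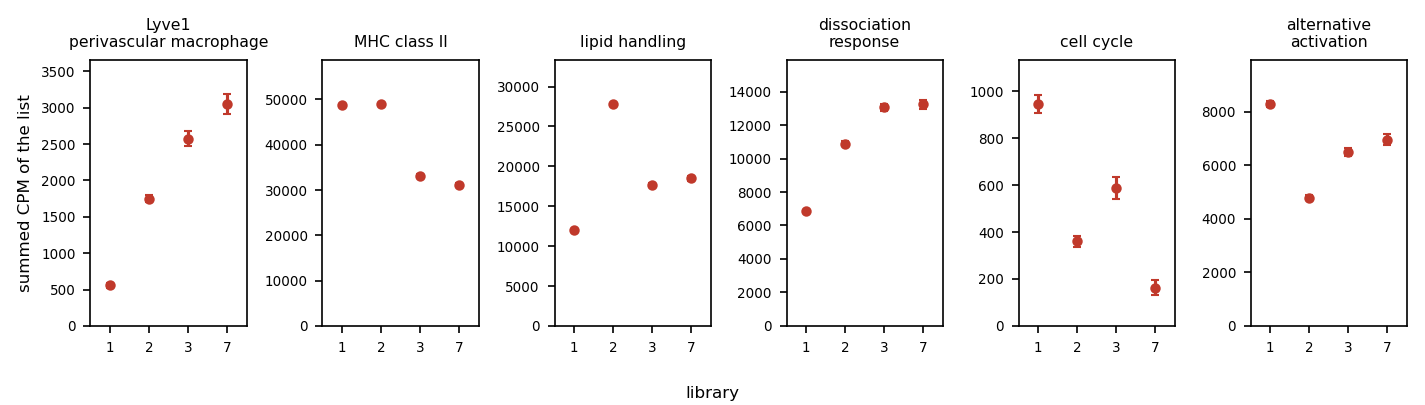
Summed level (CPM) of 6 gene lists in C1q macrophages of libraries 1, 2, 3 and 7, with exact 95% Poisson intervals that cover counting error only. The Lyve1 list is lowest in library 1 (557.4 CPM) and highest in library 7 (3048.0 CPM, of which Cbr2 is 1118.8 CPM), and the MHC class II list is lower in libraries 3 and 7 than in libraries 1 and 2.

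The Lyve1 list was higher in C1q macrophages than in the other populations, but less uniformly. Against alveolar macrophages 7 of 8 tested genes were higher (all but Cbr2, a carbonyl reductase), and against monocytes 6 of 8 (not Lyve1 or F13a1, a coagulation factor chain that monocytes make). In library 1 the summed list differed little from alveolar macrophages (log2 ratio 0.50) and stood below monocytes (-0.40), whereas pooled it was 2.91 and 1.15. The ratio to alveolar macrophages was 4.88 after a filter at 2 SD of UMIs and genes, 4.56 without the cells with other markers and 3.51 without library 1, and that to monocytes was 1.24, 0.82 and 1.62. Without library 3 the ratios to alveolar macrophages and monocytes were 2.41 and 0.88, and without library 7 they were 2.665 and 1.03.

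Within the 552 thinned members, 188 cells (34.1%, 30.1 to 38.2%) had 3 or more UMIs of the Lyve1 list, 279 had none and 85 had 1 or 2. Their share was 15.68%, 40.69%, 45.88% and 50.98% by library. The 2 sets had like depth, with medians of 10262.5 UMIs with the list and 10656 without before thinning, and 8 Scrublet calls each. This split used the 10 listed Lyve1 genes, which are left out of what follows, and the counts of genes use libraries 1, 2 and 3, since library 7 had 17 cells without the list.

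Cells with Lyve1 genes held less MHC class II. The list stood at 26331.6 CPM (25909.7 to 26758.5) with Lyve1 genes and at 59573.5 CPM (59051.7 to 60098.7) without, a log2 ratio of -1.18. The ratio was -0.62, -1.33, -1.52 and -1.59 by library, the same direction in each. H2-Aa was at 5785.5 CPM against 11406.2 CPM and Cd74 at 10719.9 CPM against 25547.2 CPM. Of 3392 genes tested, 94 (2.77%) were at least 2-fold higher and 35 (1.03%) at least 2-fold lower with Lyve1 genes in each of the 3 libraries.

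Several chemokines were higher with the Lyve1 genes, and the summed chemokine list stood at log2 ratios of 2.42, 1.46, 0.34 and 0.72 by library. Ccl8 was at 4058.5 CPM with the list and 272.4 CPM without, at 17436.8, 1946.8, 487.2 and 2128.2 CPM against 541, 17.36, 37.04 and 156.9 CPM by library. Ccl7 was at 881.2 CPM against 65.71 CPM and Ccl12 at 1065.6 CPM against 258.1 CPM. Pf4 was at 3367.0 CPM against 592.6 CPM, and Cxcl13, the B cell chemokine, at 402.5 CPM against 48.98 CPM. These levels rest on few cells, as the top 28 of the 552 cells held 67.37% of the Ccl8 and 94.9% of the Cxcl13 UMIs.

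The list of efferocytosis and scavenger receptors was at 4062.1 CPM with Lyve1 genes and 1831.5 CPM without, with log2 ratios of 0.96, 1.14, 1.26 and 0.79 by library. Mrc1 was at 1664.9 CPM with Lyve1 genes and 348.9 CPM without, Stab1 at 836.9 CPM and 178 CPM, and Clec10a, a galactose-binding lectin, at 262.4 CPM and 21.51 CPM. C4b was at 388.3 CPM against 8.363 CPM, Pla2g2d, a secreted phospholipase, at 150.7 CPM against 3.584 CPM, and Mmp9 at 207.4 CPM against 10.75 CPM. The Mmp9 ratio was uneven, with log2 values of 0.38, 3.45, 5.07 and 5.64 by library. The top 28 of the 552 cells held 86.61% of the Mmp9 UMIs. Cathepsin L differed little, at 278.4 CPM and 179.2 CPM (log2 ratio 0.62). Several of these genes were chosen after their values were seen.

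The monocyte receptor Ccr2 and the integrin Itgax were higher in cells without Lyve1 genes. Itgax was at 17.73 CPM with the list and 236.6 CPM without, and Ccr2 at 232.3 CPM and 909.2 CPM. By library the log2 ratios were -2.48, -4.11, -3.41 and -1.90 for Itgax and -1.63, -1.73, -1.68 and -2.17 for Ccr2, the same direction in each. Il1b was at 326.2 CPM against 940.3 CPM, Cd72, a B cell and macrophage lectin, at 63.83 CPM against 267.6 CPM, and Cxcl9, an interferon-gamma chemokine, at 10.64 CPM against 152.9 CPM. Cd9, a tetraspanin, and Lgals3, galectin-3, chosen after their values were seen, were at 106.4 CPM against 602.2 CPM and 297.9 CPM against 1240.1 CPM. Both sets held like levels of C1qb (4608.2 and 4513.7 CPM), Cx3cr1 (567.4 and 599.8 CPM) and Mgl2 (732.3 and 741.9 CPM). Ms4a7, at 597.5 and 804.1 CPM, differed in direction between libraries, with log2 ratios of 0.29, -0.69, 0.22 and -2.30.

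Other lists moved with this split. Classical monocyte markers were at 400.7 CPM with Lyve1 genes and 1339.3 CPM without, alveolar macrophage markers at 264.2 and 848.3 CPM (the other way in library 7), and dissociation genes at 14377.7 and 8002.4 CPM (log2 ratios of 1.2, 0.73, 0.15 and 0.27 by library). Alveolar type 2 markers were at 1072.7 against 93.19 CPM, higher in each library but hardly so in library 3, with log2 ratios of 1.257, 3.325, 0.12 and 3.648. B cell markers were at 526.6 against 330.9 CPM, also higher in each, with log2 ratios of 1.04, 0.21, 0.71 and 0.18. T cell markers were at 51.42 against 4.779 CPM, with 3.42, 0.01, 0 and 3.34. Airway, endothelial and neutrophil markers were higher with Lyve1 genes when pooled, but not in each library. Airway markers were at 2590.4 against 403.8 CPM, with log2 ratios of 4.62, -0.22, -0.35 and 6.03 by library, endothelial markers at 374.1 against 120.7 CPM, with -1.11, 1.19, 3.36 and 5.78, and neutrophil markers at 1281.9 against 293.9 CPM, with -1.11, -0.22, 3.92 and 5.36. In library 7, the highest cell for each gene held 99.66% of the Scgb1a1 and 99.8% of the S100a8 UMIs of its members. Dendritic cell markers were at 65.6 against 37.04 CPM, with -0.31, 0.24, -0.34 and 2.44. With the 81 cells of other markers left out the ratio of the MHC class II list was -1.07. The part of the dissociation and monocyte genes in the split was not tested.

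**Figure D5:**
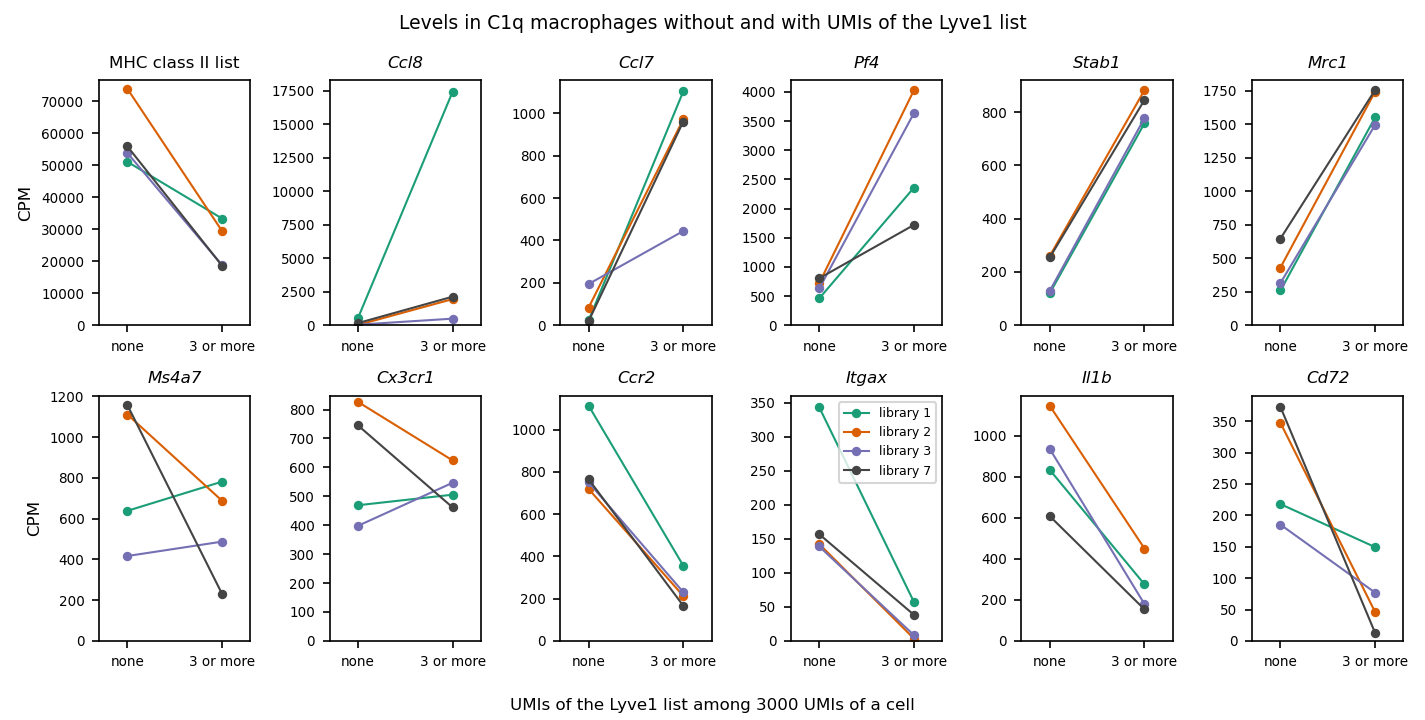
Level (CPM) of the MHC class II list and 11 genes in C1q macrophages with none and with 3 or more UMIs of the Lyve1 list, at 3000 UMIs per cell, 1 line per library. The class II list is lower and Ccl8 higher with Lyve1 genes along all 4 lines, while the lines of Ms4a7 cross; library 7 has 17 cells without the list.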

How the data were processed

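Single-cell suspensions of 4 lungs were processed with the Chromium 3′ kit, and the authors deposited 1 matrix of UMI counts per gene and barcode for 7 libraries, made with Cell Ranger 3.1.0 per the file headers, with STAR and mm10 named in the submitters' processing notes. Reads were down-sampled across libraries by the authors, and the matrix precedes their filter on cells. The 4 lung libraries held 6000, 8747, 5940 and 3657 barcodes and 50552002, 79439569, 47364075 and 34606626 UMIs. No library could be assigned to a labelled condition, so that no test was run: the matrix counts as 1 sample, and intervals (exact binomial or Poisson, 95%) cover counting error only. The members, the 20 gene lists and the 16 marker lists were chosen with earlier results of these data known.

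UMIs were summed per library and population and scaled to CPM. Cells compared had at most 10% mitochondrial UMIs. Alveolar macrophages had at least 10 UMIs over the 6 alveolar genes of the rule, 5 of Lyz2, fewer than 2 over Cdh5 and Ednrb, fewer than 5 over the set with Mmp12 and Gpnmb and fewer than 10 over the C1q genes. Classical monocytes had at least 3 UMIs of Ly6c2, 5 of Lyz2 and 1 of Csf1r, and few of the genes of other populations. B cells had at least 5 UMIs over Cd79a, Cd79b and Ms4a1 and none of Csf1r. Ratios used a pseudocount of 5 CPM, a minimum of 50 CPM in either population and at least 20 cells per library, and the genes of these gates were left out of the counts of genes. Named genes were the most abundant listed genes (up to 5 per list), listed genes past 2-fold in every library, the markers, genes the study gives for its clusters, and the 10 leading genes per comparison and direction. Some genes and a comparison with a further macrophage population are not reported here. Sepp1 and Clec7a were listed but not found by these symbols. Positions are from GENCODE M21 (30934 of 31053 gene identifiers) and promoters from RefSeq GRCm38.p6, with an entry for 5 of the 6 markers. Alternatives changed the limits, the depth, the cell filter, the minimum level, the fold and the libraries; leaving out the 81 cells with 10 or more UMIs of epithelial, endothelial, fibroblast, neutrophil or lymphocyte markers, and some limits of the Lyve1 split, were chosen after seeing the data. Doublets were called with Scrublet through scanpy 1.11.5, and the scripts, tested on simulated data, used Python 3.11.15, numpy 2.4.6, scipy 1.17.1, pandas 2.3.3 and matplotlib 3.10.9.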

Additional observations from a re-analysis of the deposited data

Results flagged for a closer look

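The rule for C1q macrophages was also applied to libraries 4, 5 and 6, which take no part in the comparisons, and 13 cells of 12762 passed (0.102%, exact 95% interval 0.0543 to 0.174%), of which 10 were in library 4, 2 in library 5 and 1 in library 6. They held 1799.7 CPM of C1qb, 133.8 CPM of Adgre1 and 2816.6 CPM of H2-Aa, but 46.83 CPM of Ms4a7 and no UMI of Ccl8 or Ccl12. Hbb-bs, a beta-globin gene, was at 33551.9 CPM in them, and Cd5l, a protein secreted by tissue macrophages, at 200.7 CPM.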

How the results depend on the processing

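The number of C1q macrophages was 340 with a limit of 5% mitochondrial UMIs and 1140 without the limit on the set with Mmp12 and Gpnmb, against 608, and 360 to 548 when 1 library was left out, the lowest being without library 2. The log2 ratio of the MHC class II list kept its direction under all alternatives run. Against alveolar macrophages (3.77) it was 3.96 at 5% mitochondrial UMIs, 3.74 and 3.80 with a minimum of 5 and 20 C1q UMIs, 4.14 after a filter at 2 SD of UMIs and genes, 3.87 without Scrublet calls, 3.91 without the cells with other markers, 3.28 with equal weights per library and 3.57 to 4.0 with 1 library left out. Against monocytes (3.16) it was 3.24 at 5% mitochondrial UMIs, 3.19 with at least 20 C1q UMIs, 3.22 after the 2 SD filter, 3.18 without Scrublet calls, 3.23 without the cells with other markers, 3.14 with equal weights and 2.77 to 3.44 with 1 library left out.

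Genes higher than in alveolar macrophages numbered 181 of 1940 tested at a minimum of 100 CPM. At 3-fold 173 of 3751 were higher and 123 lower. Against monocytes 306 of 6385 tested were higher at a minimum of 20 CPM and 129 of 1742 at 100 CPM. At 3-fold 122 of 3456 were higher and 67 lower. With 1 library left out these counts ran from 283 to 317 higher and 262 to 362 lower against alveolar macrophages and 206 to 253 and 168 to 212 against monocytes. Ctsl was seen in 21.8% of members at 1500 UMIs per cell and in 71.1% without thinning.

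In the split by the Lyve1 list, the ratio of the MHC class II list was -0.82 with a minimum of 1 UMI, -1.41 with 5, -1.26 at 1500 UMIs per cell, -0.97 without thinning, -1.07 without the cells with other markers, and -1.42 to -1.09 with 1 library left out. Genes lower with the list numbered 15 with a minimum of 1 UMI, and with 1 library left out 60 to 102 were lower and 142 to 171 higher; fewer libraries then had to agree. Over all lists, 197 of 240 levels moved outside the counting interval of the main level. Of the list ratios, 304 of 440 were also marked as moved from the main value. By looser criteria, 237 of 240 levels stayed within 1.5 times, and 429 of 440 list ratios kept their sign. The levels past 1.5 times were all of the cell cycle list, at 583.1 CPM. It was at 307.8 CPM after the 2 SD filter, 372.4 CPM as a mean over cells and 382.4 CPM without library 1. The other 11 list ratios had a ratio of at most 0.44 in size. The ratios by library compare populations within the same library and are given without a test. No paired test was run, because the matrix, whose libraries have no labelled sample, counts as 1 sample. At a median of 9875.5 UMIs per cell, genes with few UMIs, such as Ccr3, cannot be read as absent from a cell.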

Other observations

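Alox15, which encodes a lipid-oxidising enzyme and was on the list of named genes, was confined to few cells. It was at 21.42, 35.46, 26.44 and 122.1 CPM in the C1q macrophages, but 8 cells with 3 or more of its UMIs (3, 2, 1 and 2 in libraries 1, 2, 3 and 7) held 239 of its 247 UMIs. The genes compared in these 8 cells were chosen after their values were seen. They held 98.43 CPM of Gata6, the factor of peritoneal and pleural cavity macrophages, against 1.709 CPM in the other members. Prg4 (lubricin), at 2303.2 CPM against 18.64 CPM, Selp (P-selectin), at 364.2 CPM against 2.641 CPM, F5 (coagulation factor V), at 364.2 CPM against 1.709 CPM, and Fn1 (fibronectin), at 8484.3 CPM against 440.4 CPM, were on the same side. Cx3cr1 was at 39.37 CPM against 570.6 CPM, Ms4a7 at 59.06 CPM against 723.3 CPM, Stab1 at 19.69 CPM against 418.5 CPM and H2-Aa at 1840.6 CPM against 8943.7 CPM. Ccl8, a marker of the population, went the other way, at 5177.2 CPM against 1604.8 CPM. Adgre1 (728.4 CPM against 503.9 CPM) and Apoe (19281.7 CPM against 16455.1 CPM) were not lower either. C1qb was at 3179.2 CPM against 4383.8 CPM, Rnase2a at 1309.1 CPM against 120.1 CPM, and Ccr3 and Epx had no UMI in the 8 cells. Their median depth was 14063.5 UMIs, against 9832 in the other members, and with the cells of other markers left out Alox15 was at 7.088, 0, 0 and 0 CPM.

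Dividing cells were few. At 3000 UMIs per cell, 26 of 552 C1q macrophages (4.71%, exact 95% interval 3.1 to 6.83%) had 5 or more UMIs of the cell cycle list, or 8.11%, 2.60%, 5.88% and 0% by library. Mki67, a marker of dividing cells, was seen in 6.34% of the members and in 2.92% of B cells.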
